A study of Mus musculus with 6 samples.

Results

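Cathepsins are a group of proteases, many of which break down proteins inside lysosomes. The genes described are Ctsw, Ctsb, Ctsc, Ctsd, Ctsh, Ctsl, Ctss, Ctsz and Lgmn, which are 9 of the 46078 genes in the deposited expression table. Ctsw was chosen because its level was lower under the MAZR-cKO label. The other 8 were taken as the cathepsin family with legumain, and each was found by its symbol.

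RNA-seq was done on splenic regulatory T cells (Treg cells, Foxp3-dependent CD4 T cells that hold immune reactions in check). The mice were C57BL/6, aged 6 to 8 weeks, and there were 3 libraries under each of 2 labels. The WT group is labelled wild type DEREG-eGFP+. The MAZR-cKO group is labelled MAZRf/f DEREG-eGFP+ CD4-cre+, so that both groups share the DEREG transgene, which marks Foxp3-expressing cells with green fluorescent protein. The labels list neither the floxed alleles nor Cre for the WT group, so the groups differ in both. Cre under Cd4 control acts in all T cells that pass the CD4-expressing stage, CD8 T cells included. Each RNA preparation came from about 800000 to 2000000 sorted CD4+eGFP+ cells. The labels do not say whether animals were pooled. RNA of male and female cells was present together in every library but MAZR-cKO 2, as given below. The spread given here is that between libraries and may be technical in part.

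Most cathepsins are cysteine proteases of the papain family, made as inactive precursors, carried to lysosomes by mannose 6-phosphate receptors and activated there by acid and by cleavage. Ctsd is an aspartic protease, and legumain, a protease that cuts after asparagine, trims several cathepsins to their mature forms. In immune cells cathepsins are known for the activation of granzymes, for invariant chain breakdown in cells that present antigen on MHC class II, and for lysosomal turnover.

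The papain-type members carry a shared active site, which sets them apart from Ctsd and Lgmn. The core searched was a cysteine, a pair of residues, the catalytic cysteine and then tryptophan or tyrosine. It occurred 1 time in each of the 7 papain-type members and 0 times in Ctsd and Lgmn. The coding stretches, from the GENCODE M21 transcripts of GRCm38, are shown because they show, letter for letter, how far the family shares this site. The capitals mark the codon of the catalytic cysteine:
Ctsw: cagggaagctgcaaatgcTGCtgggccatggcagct
Ctsc: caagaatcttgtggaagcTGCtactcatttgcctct
Ctsb: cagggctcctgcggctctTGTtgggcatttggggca
Ctsh: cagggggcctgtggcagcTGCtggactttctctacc
Ctsl: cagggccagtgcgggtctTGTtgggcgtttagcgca
Ctss: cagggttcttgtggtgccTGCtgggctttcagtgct
Ctsz: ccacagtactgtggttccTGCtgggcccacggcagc

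This codon stood at residue 151 of 371 in Ctsw, 257 of 462 in Ctsc and 94 of 306 in Ctsz, counted from the start codon. The codon was TGT in Ctsb and Ctsl and TGC in the other members that have it. Over the whole coding sequences the longest stretch shared by any pair of the 9 genes was 16 bases, between Ctsl and Ctss.

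The libraries held 15481565 to 28184456 reads, and 1 read was worth 0.0347 to 0.0621 CPM (the deposited unit, read counts scaled to library size). The Treg label held, with Foxp3 at 1252 to 1415 CPM and Cd4 at 901 to 1019 CPM in all 6 libraries. Patz1, the gene of MAZR and the targeted gene, was higher rather than lower under the knockout label, at 179 ± 2.1 CPM against 71.4 ± 3.6 CPM (SD, n = 3) in WT. A gene-level value does not show whether the floxed part was present. Groups are therefore named by their labels, and directions are those of the labels.

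The members covered a wide range of levels, with cathepsins S and D at the top and L and H at the bottom. Per kilobase of merged exons, Ctss stood highest, at 186 CPM per kb on average over the 6 libraries (162 to 196). Its product digests the invariant chain in B cells and dendritic cells. Ctsd followed at 138 CPM per kb (130 to 155), with no overlap between the genes. Ctsb, which cuts within and from the ends of proteins, had 54.2 CPM per kb (48.6 to 59.4), and its range overlapped that of Ctsz, a carboxypeptidase, at 47.4 (44.4 to 50.2). Ctsw, which is best known from cytotoxic T cells and natural killer cells, came after Ctsz at 33.1 CPM per kb (24.2 to 40.9).

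Lgmn at 14.3 CPM per kb (13.6 to 15.7) and Ctsc at 13.3 (12.4 to 14.7) overlapped. So did Ctsl at 1.33 (0.929 to 1.69) and Ctsh at 1.03 (0.516 to 1.30), which were the lowest. The order depended in part on the length used. Per kilobase of coding sequence Ctsb was highest at 323 CPM per kb, ahead of Ctsd at 264 and Ctss at 247, while Ctsl and Ctsh stayed last.

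**Figure D1:**
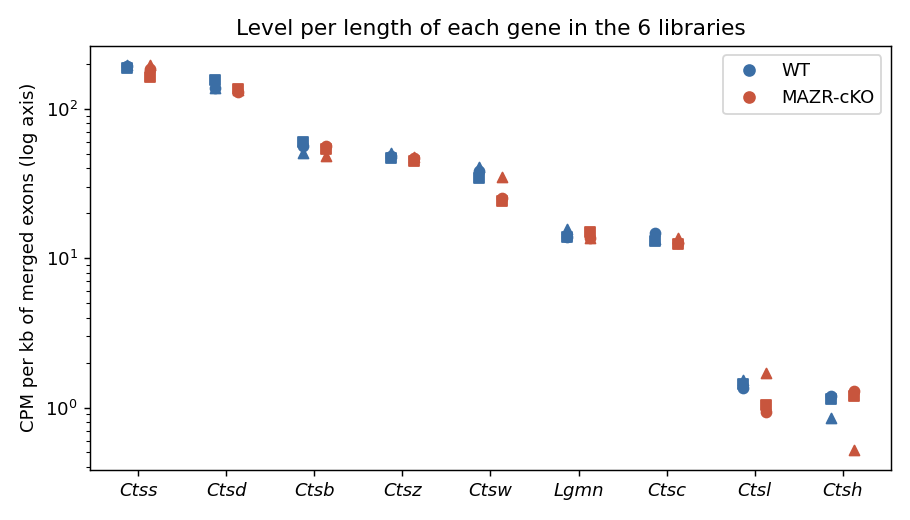
Level of each of the 9 genes in CPM per kilobase of merged exons (log axis) in the 3 WT and 3 MAZR-cKO libraries; circles, squares and triangles are replicates 1, 2 and 3. Ctss lies between 162 and 196 CPM per kb, and Ctsl and Ctsh lie at or below 1.69 CPM per kb.

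Ctsw, the cathepsin for which the group was picked, lies at chr19:5465043-5468507 (mm10, minus strand). It stood at 72.7, 65.0 and 77.3 CPM in WT 1, 2 and 3. MAZR-cKO 1, 2 and 3 had 47.9, 45.8 and 66.2 CPM. MAZR-cKO 3 thus lay just above the lowest WT library, so the groups overlapped, while the others under that label lay well below all WT libraries.

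The Ctsw means were 71.7 ± 6.2 and 53.3 ± 11 CPM (SD, n = 3), a difference of -25.6% and of -0.44 on the log2(CPM + 0.5) scale, which understates differences of low genes. These values chose the gene and are a description, with no test. By replicate number the log2 differences were -0.60, -0.50 and -0.22. The value was -0.61 without MAZR-cKO 3, the library nearest to WT, and -0.34 without MAZR-cKO 2, the lowest. Ctsw rested on 771 to 1910 reads per library, and counting error was at most 0.052 on the log2 scale. Its SD within groups, 0.22 on the log2 scale, was larger than that of 97.8% of the 2137 tested genes of similar level.

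The libraries had the same order in Ctsw as in the sum of 4 genes of the Y chromosome (Uty, Kdm5d, Ddx3y and Eif2s3y), a pattern noticed after the values were seen. The Y-linked sum was 217, 164 and 276 CPM in WT 1, 2 and 3 and 116, 0.48 and 199 CPM in MAZR-cKO 1, 2 and 3. All 15 pairs of libraries were ordered alike, also within each label. WT 2 and MAZR-cKO 3, at 65.0 and 66.2 CPM of Ctsw, differed by less than counting error, so the order of that pair is not resolved. Among the 12040 genes tested, 57 (0.473%) followed the order of the Y-linked sum in full and 0.199% its reverse. Ctsw was picked for a lower level under the label where the Y-linked sum was also lower, so part of the match follows from that choice. The share over all genes does not allow for this, nor for the other members and marker lists compared in the same way. With the log2 of the Y-linked sum as a covariate, the log2 difference of Ctsw was -0.30 instead of -0.44. On that scale MAZR-cKO 2, at 0.48 CPM, lay far from all other libraries. The covariate thus mostly sets that library apart, and leaving it out gave -0.34. Y-linked RNA was lower under the MAZR-cKO label in all 3 pairs. Xist, the RNA of the inactive X chromosome of female cells, was higher in all 3. It was at 561, 774 and 355 CPM in WT 1, 2 and 3 and at 1145, 1552 and 605 CPM in MAZR-cKO 1, 2 and 3. Every library but MAZR-cKO 2 thus held RNA of both sexes, and the mix differed between libraries. The part of the animals' sex in the Ctsw difference was not tested. Ctsz was the other member ordered like the Y-linked sum in all 15 pairs. Its levels in WT 2, MAZR-cKO 1 and MAZR-cKO 3 were 67.8, 67.4 and 68.5 CPM. They differed by less than counting error (at most 0.044 on the log2 scale), so the order of these libraries in Ctsz is not resolved. Ctsc and Ctss were ordered like it in 13 of 15, and the other members in 5 to 11.

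**Figure D2:**
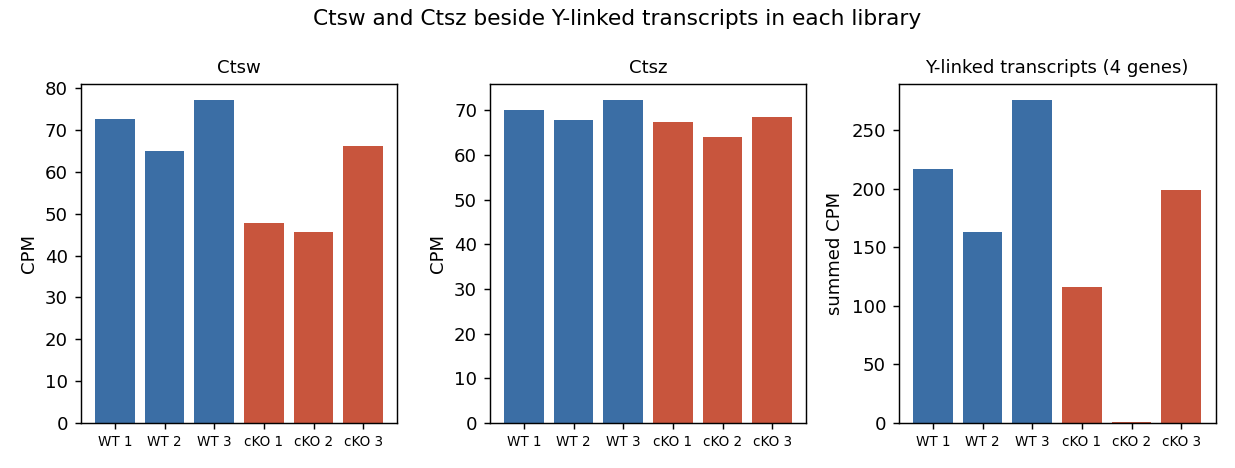
Ctsw and Ctsz in CPM and the summed CPM of 4 Y-linked genes in each library (bars are single libraries, blue WT, red MAZR-cKO; cKO stands for MAZR-cKO). The 3 panels rank the libraries alike, from WT 3 at the top to MAZR-cKO 2, with 0.48 CPM of Y-linked RNA, at the bottom. Some neighbouring ranks in Ctsw and Ctsz differ by less than counting error and are not resolved.

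The genes whose pattern over the 6 libraries was most like that of Ctsw were Myo6, Gbp2b, Nucb2, Cpd and 5830468F06Rik. Likeness was measured as the root-mean-square difference of centred log2 values, which was 0.077 to 0.105 for these genes, against a median of 0.284 over 8818 genes of at least 10 CPM. Gbp2b, an interferon-induced GTPase, was at 19.3, 15.8 and 18.2 CPM under the WT label, against 12.1, 11.3 and 14.6 CPM under the MAZR-cKO label. Myo6, an unconventional myosin, was at 13.3, 12.3 and 12.8 CPM and at 8.64, 7.36 and 11.8 CPM. A gene like Ctsw is bound to be lower under the same label, so these directions are no separate result.

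None of the other 8 members passed the test, with wide intervals for Ctsl and Ctsh and narrower ones for the rest. Each had a lower mean under the MAZR-cKO label, by 2.82 to 15.3% of the WT mean, and 0 of 8 were called by limma (Benjamini-Hochberg adjusted p under 0.05 over all 12040 genes tested). In the same fit 5 genes (0.0415%) were called. At an unadjusted p under 0.05, 0 of the 8 passed in limma, where 632 of all genes (5.25%) did. edgeR and DESeq2 on whole reads also called 0 of the 8. The fits so far ignore the replicate number. With that number as a block, limma also called 0 of the 8, and the SE of each was smaller. It was 0.17 instead of 0.29 for Ctsh, 0.14 instead of 0.20 for Ctsl and 0.043 instead of 0.072 for Ctsb. For Lgmn it was 0.072 instead of 0.074. The median log2 difference was -0.09, beside -0.01 over all genes tested, of which 56.1% had a lower mean.

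All 9 members passed the filter on low values, 1 CPM in at least 3 libraries. The direction of Lgmn rested on WT 3, without which its log2 difference was 0.02. That of Ctsh rested on MAZR-cKO 3, without which it was 0.23, and that of Ctss was 0.01 with the Y-linked covariate.

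**Figure D3:**
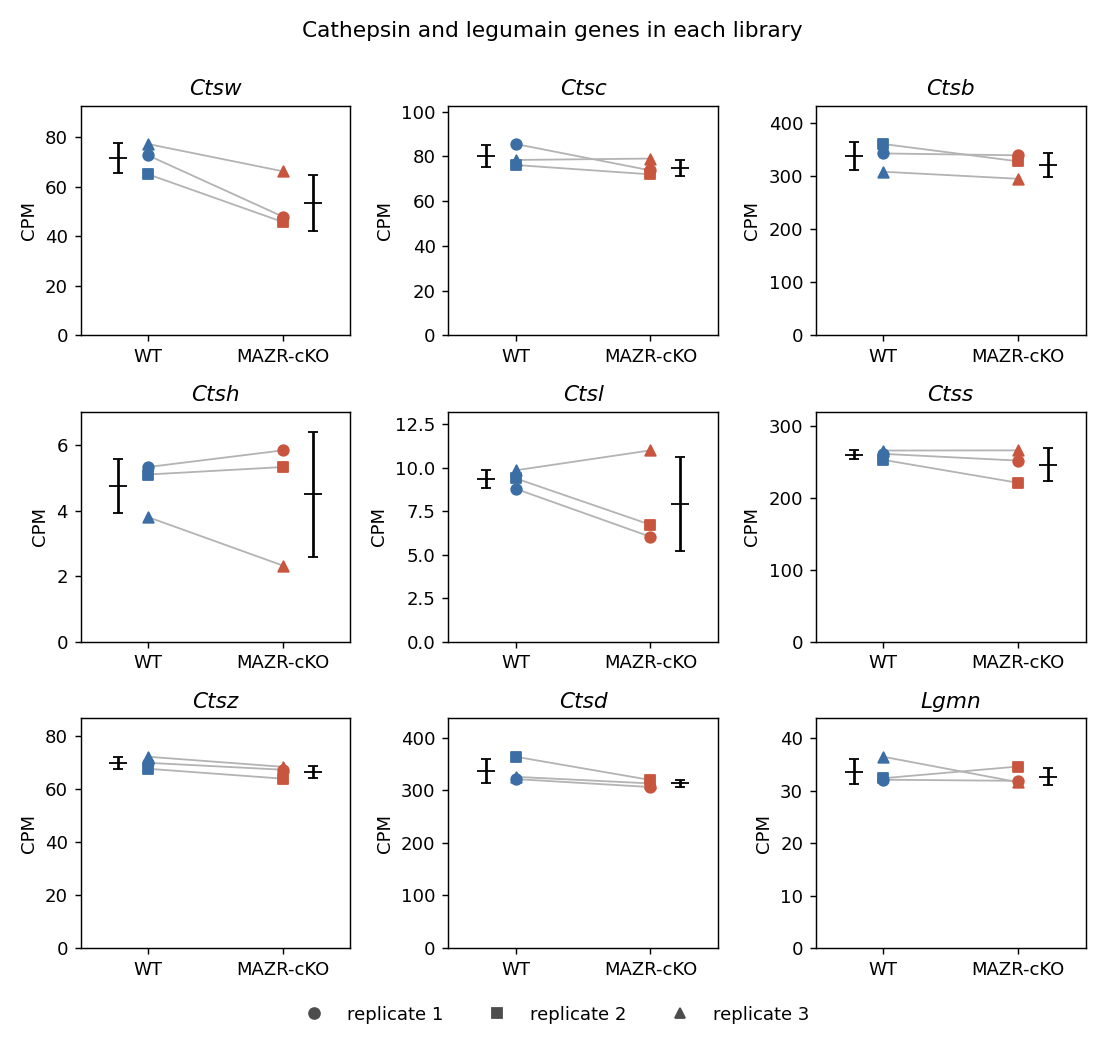
CPM of each of the 9 genes in WT (blue) and MAZR-cKO (red) libraries; grey lines join the same replicate number and black bars show the mean ± SD (n = 3). Ctsd is the member whose groups do not overlap, and Ctsl and Ctsh have a single MAZR-cKO library apart from the other pair.

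Ctsd, the aspartic protease cathepsin D, was the member without overlap between the groups. It lies at chr7:142375911-142388038 (mm10, minus strand). Its level was 321, 364 and 326 CPM under the WT label, against 306, 320 and 313 CPM under the MAZR-cKO label, so that even the highest of the latter lay just under the lowest WT library. The log2 difference was -0.10 (SE 0.06, 95% interval -0.23 to 0.02, limma adjusted p = 0.914), and without WT 2, the highest library, it was -0.05. With the replicate number as a block, its unadjusted limma p was 0.0364, and 6.66% of all genes were lower with an unadjusted p under 0.05. Its limma adjusted p was then 0.427, in a fit that called 0.382% of all genes and 0.0831% as lower. In the annotation, 34.4% of the exon bases of Ctsd also belong to Gm49369 on the same strand. Gm49369 is absent from the deposited expression table, and how reads in that stretch were counted is not known. Of all genes tested, 5.74% were lower without overlap, beside 1 of 8 members.

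The Ctsd promoter is shown because it holds the E-box letters CACGTG 2 times, the core of the sites bound by TFEB, the main known activator of lysosomal genes. The 250 bases before the RefSeq start (RefSeq, GRCm38.p6, chr7:142387828-142388077, minus strand, 5′ to 3′) read as follows, with the E-box letters in capitals:
Ctsd: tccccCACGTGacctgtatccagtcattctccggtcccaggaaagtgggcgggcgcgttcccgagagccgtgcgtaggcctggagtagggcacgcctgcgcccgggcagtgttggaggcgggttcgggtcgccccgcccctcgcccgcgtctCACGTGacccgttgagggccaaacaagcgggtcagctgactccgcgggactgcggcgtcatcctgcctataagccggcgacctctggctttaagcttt

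CACGTG reads the same on both strands and is the core of the longer TCACGTGA. CACGTG occurred in 7.15% of the 32851 RefSeq promoter windows of 300 bases, and TCACGTGA, which the Ctsd window also holds, in 0.974%. The 5′ end of Ctsd in GENCODE, at 142388038, lies inside the printed stretch. The first CACGTG lies before that end, while the second, which forms TCACGTGA, lies within the GENCODE gene. The table had windows for Ctsc, Ctsd, Ctsl, Ctss, Ctsz and Lgmn. Of these, CACGTG was also in the window of Ctsl and in 1 of the 2 windows of Lgmn. Ctsw, Ctsb and Ctsh were not in the table.

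Ctsc, or dipeptidyl peptidase 1, which activates granzymes by trimming their ends, lies at chr7:88278085-88310888 on the plus strand. It was at 85.6, 76.2 and 78.4 CPM under the WT label, against 73.8, 72.0 and 79.1 CPM under the MAZR-cKO label. The groups overlapped, with WT 1 highest. The log2 difference was -0.09 (95% interval -0.23 to 0.04, limma adjusted p = 0.914), and without WT 1 it was -0.05.

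Ctss (chr3:95526786-95556403, plus strand) was at 261, 253 and 265 CPM under the WT label, against 251, 221 and 266 CPM under the MAZR-cKO label. MAZR-cKO 2 was the low library, and the highest value of all was in MAZR-cKO 3. The log2 difference was -0.08 (95% interval -0.24 to 0.07, limma adjusted p = 0.926), and it was -0.01 without MAZR-cKO 2 and -0.14 without MAZR-cKO 3.

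Ctsb (chr14:63122462-63145923, plus strand) stood at 342, 360 and 308 CPM under the WT label, against 338, 327 and 294 CPM under the MAZR-cKO label. Replicate 3 was the lowest under both labels. The log2 difference was -0.07 (95% interval -0.24 to 0.09, limma adjusted p = 0.926). It was -0.01 without MAZR-cKO 3, -0.02 without WT 2, -0.11 without MAZR-cKO 1 and -0.13 without WT 3. Ctsb shares 774 exon bases, 12.8% of its own, with Fdft1 on the opposite strand, a cholesterol synthesis gene at 24.8 to 30.9 CPM. The kit keeps strand, but the counting mode is not given, so reads in that stretch are uncertain.

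Ctsz (chr2:174427493-174439039, minus strand), which removes residues from the carboxyl end of proteins, was the steadiest member. It was at 70.0, 67.8 and 72.3 CPM under the WT label, against 67.4, 64.0 and 68.5 CPM under the MAZR-cKO label. Its groups overlapped at a single point, where MAZR-cKO 3 exceeded WT 2. The log2 difference was -0.07 (95% interval -0.19 to 0.05, limma adjusted p = 0.918), with pairs at -0.05, -0.08 and -0.08, and it was -0.04 without MAZR-cKO 2. Ctsb, Ctsz and Ctsd were lower in each of the 3 pairs, as were 19.2% of all genes tested.

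Lgmn, which encodes legumain and has been linked in mouse induced Treg cells to the breakdown of Foxp3 protein, lies at chr12:102394084-102439813 on the minus strand. It stood at 32.1, 32.4 and 36.5 CPM under the WT label, against 31.9, 34.6 and 31.6 CPM under the MAZR-cKO label. The groups overlapped, and the pairs went both ways, with log2 differences of -0.01, 0.09 and -0.20. The overall value was -0.04 (95% interval -0.21 to 0.13, limma adjusted p = 0.959), and leaving out 1 library gave -0.08 (without MAZR-cKO 2) to 0.02 (without WT 3).

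**Figure D4:**
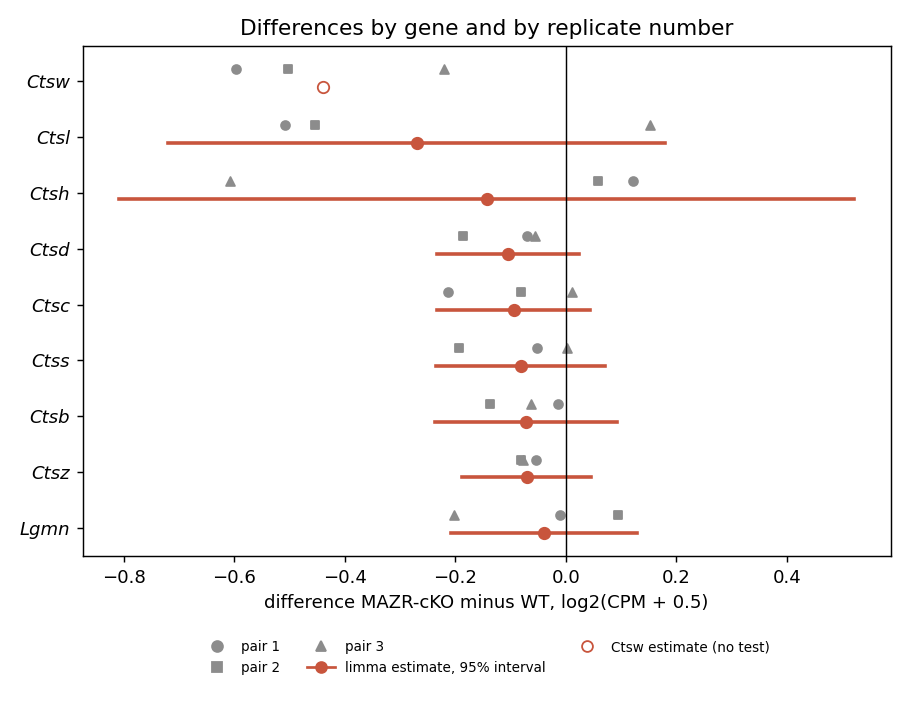
Difference between MAZR-cKO and WT libraries on the log2(CPM + 0.5) scale for each gene; grey symbols are the 3 replicate numbers, red points the estimates and red lines their 95% intervals from limma. Ctsw, at -0.44, is shown without an interval as it was picked on this difference. The intervals come from the fit that ignores the replicate number, and those of the other 8 genes all include 0. With the number as a block, Ctsd had an unadjusted limma p of 0.0364 and an adjusted p of 0.427.

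The scarcest members, Ctsl and Ctsh, varied most in proportion. Ctsl (chr13:64359337-64370890, minus strand), a strong endopeptidase, was at 8.79, 9.39 and 9.85 CPM under the WT label, against 6.03, 6.72 and 10.99 CPM under the MAZR-cKO label. MAZR-cKO 1 and 2 were below every WT library and MAZR-cKO 3 above every one. The pairs differed by -0.51, -0.45 and 0.15 on the log2 scale, and the overall value was -0.27 (95% interval -0.72 to 0.18, limma adjusted p = 0.918). It was -0.52 without MAZR-cKO 3 and -0.11 without MAZR-cKO 1. These levels rested on 97 to 317 reads per library. An antisense gene, Gm47123, and a pseudogene, Gm49230, cover 1742 and 395 exon bases of Ctsl in the annotation. Both are absent from the deposited expression table.

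Ctsh, an aminopeptidase at chr9:90054152-90076089 (plus strand), was at 5.33, 5.10 and 3.80 CPM under the WT label, against 5.84, 5.33 and 2.32 CPM under the MAZR-cKO label. Replicate 3 was lowest under both labels, and the groups overlapped throughout. The log2 difference was -0.14 (95% interval -0.81 to 0.52, limma adjusted p = 0.962), on 67 to 105 reads per library.

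Markers of macrophages and monocytes followed the same order as Ctsh. Their summed level over 9 genes (Csf1r, Adgre1, Lyz2, Cd14, C1qa, C1qb, C1qc, Vcam1 and Spic) was 135, 105 and 68.0 CPM under the WT label, against 153, 120.3 and 48.3 CPM under the MAZR-cKO label. All 15 pairs of libraries were ordered alike, though WT 1 and MAZR-cKO 2 were both at 5.33 CPM of Ctsh and differed by less than 1 read is worth, so that their order is not resolved. This full order is one that 0.299% of all genes tested share and 0.249% reverse, and the match was also noticed after the values were seen. None of the 9 markers was at 0 in all libraries, and Csf1r, the receptor that defines the lineage, ran from 9.71 to 38.5 CPM. Ctsl was ordered the opposite way in 14 of 15 pairs, a count for which no share over all genes was computed. In a bulk sample, fewer cells of a type and less RNA per cell cannot be told apart, and the part of such cells in the Ctsh level was not tested.

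**Figure D5:**
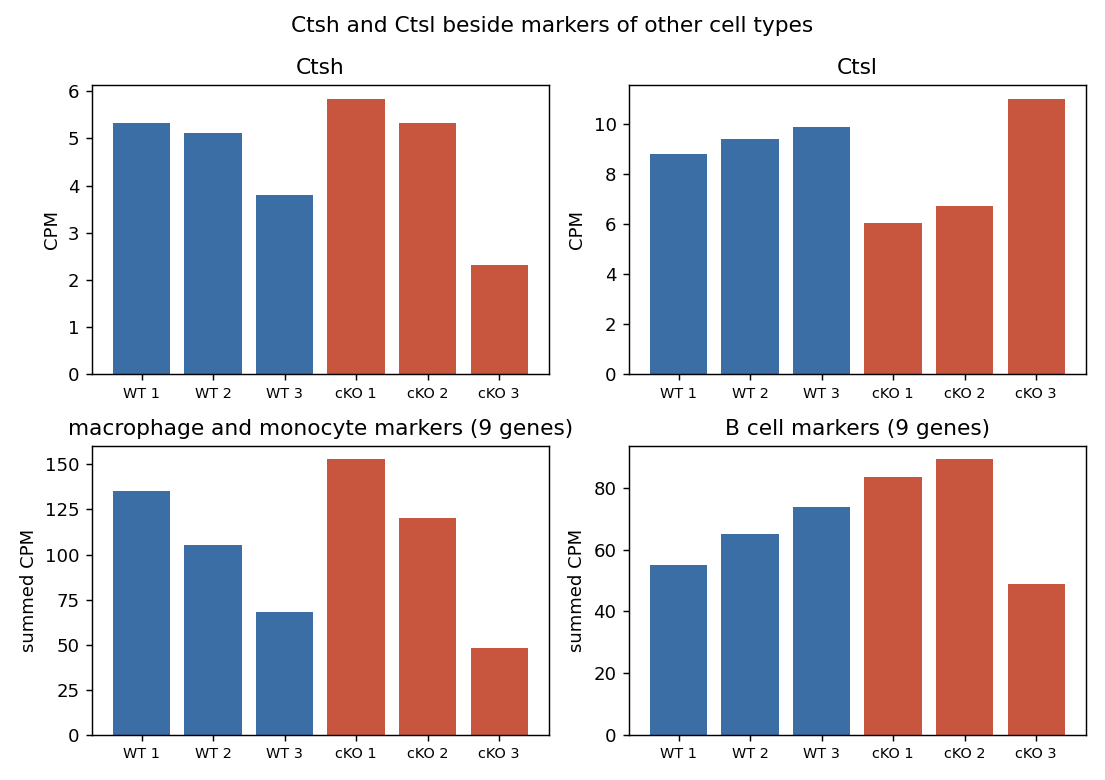
Ctsh and Ctsl in CPM beside the summed CPM of 9 macrophage and monocyte markers and of 9 B cell markers, by library (blue WT, red MAZR-cKO; cKO stands for MAZR-cKO). Ctsh and the macrophage and monocyte sum rank the libraries alike, from MAZR-cKO 1 to MAZR-cKO 3, while Ctsl is highest in MAZR-cKO 3.

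Other marker lists were measured in the same way, and each was present at a low level. B cell markers (9 genes) summed to 55.0 to 74.0 CPM under the WT label, against 48.9 to 89.3 CPM under the other label, and Ctss, abundant in B cells, matched their order in 2 of 15 pairs of libraries. Markers of CD8 T and natural killer cells (7 genes), in which Ctsw is best known, summed to 33.3 to 43.1 and 37.9 to 54.6 CPM. Ctsw matched their order in 3 of 15 pairs, and each of the 7 had a higher mean under the MAZR-cKO label. Dendritic cell markers (7 genes) ran from 5.20 to 11.5 CPM over all libraries, in an order that Ctss reversed in full, with 0 of 15 pairs alike. Neutrophil markers (8 genes) ran from 1.11 to 9.90 CPM. Red cell markers (6 genes) were lower under the MAZR-cKO label in all 3 pairs, at 48.9, 26.1 and 13.8 CPM under the WT label, against 20.4, 16.3 and 9.47 CPM. All 5 that were tested had a lower mean, with a median log2 difference of -0.71, and limma called 0 of them without the block, where 1, Hbb-bs, had an unadjusted p under 0.05, and called Hbb-bs with it (adjusted p = 0.0206). Ctsb matched the order of the red cell sum in 14 of 15 pairs, and the part of such RNA in its level was not tested. Every member was compared with every list, so some close or reversed orders may arise from the number of comparisons. The share of all genes with such orders was not computed for the lists of this paragraph. No gene of these lists was at 0 in every library.

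The wider lysosomal pathway was followed in 9 lists with 168 genes, of which 138 were tested. limma called 0 of them and edgeR called 0. In limma 9 had an unadjusted p under 0.05, beside 5.25% of all genes tested. DESeq2 called 1, Npc2, as did edgeR with the block.

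Among 15 other cathepsins, 4 were tested, and 9, most of them known from rodent placenta, had 0 reads. The protective protein gene Ctsa stood at 180 ± 3.3 CPM under the WT label, against 173 ± 0.83 CPM (SD, n = 3) under the MAZR-cKO label, and Ctso at 70.2 ± 7.0 and 66.3 ± 5.5 CPM. Ctsf, another papain-type cathepsin, was higher without overlap, at 2.08, 2.14 and 1.85 CPM against 3.42, 3.04 and 2.98 CPM (log2 difference 0.53, limma adjusted p = 0.823). These levels are near the filter of 1 CPM. The share of all genes that were higher without overlap was not computed, here or for the genes below. The list's median log2 difference was -0.04. Of the 6 other lysosomal peptidases 4 had a lower mean (median -0.01), with Tpp1 at 92.6 ± 2.5 and 91.8 ± 4.5 CPM and Prcp at 17.5 ± 0.32 and 18.4 ± 0.95 CPM.

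Cathepsin inhibitors include cystatins and serpins, and 9 of the 24 listed were tested. Their median was -0.08, and 8 of the 9 had a lower mean. Cst3, the secreted cystatin C, was at 50.9 ± 2.0 and 50.0 ± 2.6 CPM, and Cst7, the lysosomal cystatin F that restrains Ctsc, at 56.4 ± 6.5 and 51.5 ± 9.8 CPM. Serpinb9, which inhibits granzyme B, was at 31.0 ± 1.9 and 28.4 ± 2.5 CPM, and Serpinb6b at 20.9 ± 1.1 and 18.8 ± 2.5 CPM.

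Genes that sort enzymes to lysosomes had a median of -0.06 over 15 genes. Igf2r, the larger mannose 6-phosphate receptor, was at 404 ± 23 and 384 ± 12 CPM, and the sorting receptor Sorl1 at 239 ± 42 and 259 ± 38 CPM. Scarb2, which carries glucocerebrosidase, was higher without overlap, at 98.9 ± 1.8 and 105 ± 3.8 CPM (limma adjusted p = 0.914). Among 17 tested genes of TFEB and lysosome control (median -0.04), Flcn, the folliculin gene that restrains TFEB, was at 98.3 ± 5.8 and 87.9 ± 0.47 CPM without overlap (limma adjusted p = 0.914), and its partner Fnip1 at 46.8 ± 4.6 and 51.7 ± 3.5 CPM.

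Of 35 other lysosomal hydrolases 20 had a lower mean, with a median of -0.02. Pld3, a lysosomal nuclease, had the smallest p of the pathway without the block, while Npc2 and Npc1 had smaller ones with it. It stood at 150, 164 and 153 CPM under the WT label, against 132, 126 and 135 CPM under the MAZR-cKO label, with no overlap (log2 difference -0.25, limma adjusted p = 0.364, or 0.0858 with the block). Asah1, the acid ceramidase gene, was at 29.4 ± 1.6 and 25.6 ± 0.92 CPM, while Psap, the precursor of the saposins, was at 542 ± 27 and 548 ± 13 CPM.

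Membrane and proton pump genes had a median of -0.02 over 25 tested. Npc2, which moves cholesterol out of lysosomes, was the gene of smallest p in this list, at 285, 276 and 293 CPM under the WT label, against 322, 324 and 364 CPM under the MAZR-cKO label. Its groups did not overlap (log2 difference 0.24, limma adjusted p = 0.638, or 0.0524 with the block). Its adjusted p was 0.0464 in edgeR with the block and 0.0245 in DESeq2. Laptm5, a lysosomal membrane protein of blood cells, was at 1872 ± 79 and 1757 ± 32 CPM.

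Cytotoxic granule genes, among which are the granzymes that Ctsc activates, had a median of -0.02 over 13 tested. Nkg7, a granule membrane protein, was at 25.0, 26.2 and 20.9 CPM under the WT label, against 23.7, 17.8 and 15.1 CPM under the MAZR-cKO label, and Fasl, a death ligand, at 5.44 ± 0.68 and 3.82 ± 0.74 CPM. Both had limma adjusted p of 0.914, and Srgn, the granule proteoglycan, was at 405 ± 18 and 386 ± 11 CPM.

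In the list of MHC class II and endosomal substrates 8 of 14 tested genes had a higher mean (median 0.04). Cd74, the invariant chain that Ctss digests, was at 117, 119 and 122 CPM under the WT label, against 150, 127 and 99.7 CPM under the MAZR-cKO label. H2-Oa and H2-Ob, the chains of the peptide-loading inhibitor H2-O, were each lower without overlap, at 19.1 ± 2.1 and 14.4 ± 3.2 CPM and at 83.0 ± 8.1 and 70.1 ± 3.4 CPM (limma adjusted p = 0.914 for each).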

How the data were processed

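The authors deposited 1 table of gene-level CPM values for 6 libraries, and its unit was read from the values. Each column summed to 96.2 to 99.2% of the nominal CPM total. FastQC, STAR 2.5.2b, Subread 1.5.1, R 3.4, edgeR and mm10 are named without roles in the submitters' processing notes, and strand mode and annotation release are not given in the sources used here. Values above 0 were whole multiples of the smallest one within 0.01 reads for 100% of them, so whole reads were recovered. Symbols, coordinates and lengths came from GENCODE M21 (GRCm38, which mm10 denotes) for 45143 of 46078 identifiers.

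limma 3.58.1 (R 4.3.3) with its trended prior variance was applied to log2(CPM + 0.5) for the 12040 genes reaching 1 CPM in at least 3 libraries, and adjusted p-values (Benjamini-Hochberg) under 0.05 were called. edgeR 4.0.16 (quasi-likelihood) and DESeq2 1.42.0 on the recovered reads were alternatives. The limma and edgeR fits were tested on simulated data. Same-numbered libraries correlated at 0.399, 0.381 and 0.379 after removing group means, and their descriptions share a code of unstated meaning. As each was over 0.1, libraries of the same number were treated as pairs in the differences by replicate number and in a fit with the number as a block. Intervals and adjusted p-values of the members come from the fit without the block, which ignores this pairing, unless the block is named. The members and lists were chosen with earlier results of these data known. The genes named are all members and the 5 genes most like Ctsw. Per list they are the called genes, then some of those with the 2 smallest p and the 2 highest levels. Marker genes, Patz1 and Xist serve as checks. Genes that overlap a member, or were called in an alternative, are named beside it. 1 gene of the marker lists is not reported here, and the sum of its list leaves it out.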

Additional observations from a re-analysis of the deposited data

How the results depend on the processing

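Over 20 alternatives to the limma fit, 0 of the 8 members other than Ctsw were called, and the smallest adjusted p was 0.105. Of their 160 alternative log2 differences 155 kept their direction. The exceptions were Lgmn at 0.0192 without WT 3 and 0.0424 with the block and without replicate 3, Ctsh at 0.2256 without MAZR-cKO 3 and 0.0891 with the block and without replicate 3, and Ctss at 0.0127 with the Y-linked covariate. Leaving out replicates, with or without the block, moved Ctsh from -0.358 to 0.2256 and Lgmn from -0.1063 to 0.0424, while leaving out 1 library moved Lgmn from -0.0802 to 0.0192. The difference of Ctsw ran from -0.605 to -0.300. Over all genes, where the fit without the block called 5, there were 46 calls with the replicate block, 46 in edgeR with the block and 34 in DESeq2. Leaving out 1 library gave 4 to 14, the latter without MAZR-cKO 3. With the block, leaving out 1 replicate number gave 8 without replicate 1, 45 without replicate 2 and 279 without replicate 3. Of the pathway lists 1 gene, Npc2, was called in edgeR with the block and in DESeq2, and 5 (Pld3, Npc2, Npc1, H2-Ob and H2-Ab1) with the block and without replicate 3, against 0 elsewhere. The pairing changed no call among the members tested. Of the 9 members, 5 kept their rank in level per length with the longest transcript and 5 with coding length. The CPM values were the same in each case, and only the lengths differed. Ctsh and Ctsl, with 67 to 317 reads per library, are the members whose precision depth limits most.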
